A study of Mus musculus with 12 samples.

Results

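The genes described here are 10 mouse genes that carry iron, heme, zinc and copper through the cell: Tfrc, Slc11a2, Slc39a14, Steap4, Fth1, Ftl1, Slc40a1, Hmox1, Mt1 and Mt2. They were taken by gene symbol from the raw count table of 57186 genes, each matched 1 row, and all 10 passed the filter on low counts. RNA was sequenced from 3 DDKC lines, which are tumor cell lines grown from pancreata of Dkk3-/- mice with a Ptf1aCre/+ driver and labelled DDKC_9750, DDKC_9790 and DDKC_9804. Every line was measured untreated and after treatment with rDKK3, a recombinant form of the soluble DKK3 protein in duplicate libraries, which makes 2 for a line in 1 condition and 12 altogether. All samples therefore share the Dkk3 knockout and the Cre driven from the Ptf1a locus, which is active in pancreatic progenitors and acinar cells. Each is a single line isolated from DDKC mice, and the untreated cells of the same line are the only control. The cells grew in medium with serum. The rDKK3 concentration for the RNA samples is not given in the sources used here.

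Total counts were 7520741 to 24541083 in the untreated and 3822987 to 11567095 in the rDKK3 libraries, and in DDKC_9750 and DDKC_9804 both rDKK3 libraries were shallower than both untreated ones. Levels are in CPM, the count relative to each library's TMM-scaled total, and the floor of 3 counts lay between 0.127 and 0.754 CPM. Duplicate libraries agreed within sampling noise when each gene was given a shift common to all pairs, from the library with the lower number to that with the higher one (deviance of 0.764 per degree of freedom, against 6.39 without the shift). They were therefore summed and counted as 1 sample, so that n = 3 lines. Dkk3 held at most 1 count in any library. The 6 epithelial markers summed to 4820 to 9810 CPM in untreated and 3740 to 8120 CPM in rDKK3 libraries, with Krt8, Krt18, Krt19 and Krt7 abundant and Epcam low. Acinar markers summed to at most 12.7 CPM, with Cpa1, Ptf1a and Amy2a5 at 0, fibroblast markers to at most 13.3 CPM and erythroid markers to at most 0.414 CPM. Endothelial markers summed to 1.08 to 15.5 CPM in untreated and 0.947 to 20.9 CPM in rDKK3 libraries. The leukocyte and macrophage list reached 1030 CPM, almost wholly from Cd14, while Adgre1, Lyz2 and Spi1 were at 0.

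Most mammalian cells take up iron as ferric transferrin bound to the transferrin receptor, reduce it in the endosome and pass it to the cytosol through a divalent metal transporter. Iron that is not used for heme and iron-sulfur clusters is stored in the ferritin shell, and the surplus leaves through ferroportin. Iron regulatory proteins bind a hairpin in several of these mRNAs, the iron-responsive element: in a 5′ UTR it blocks translation when iron is scarce, and in the 3′ UTR of the transferrin receptor it protects the mRNA from decay. Metallothioneins bind zinc and copper, and heme oxygenase frees iron from heme. RNA counts do not show the translational arm of this control.

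Hairpins of this kind are shown because they are the known link between iron and several of these mRNAs. The UTRs of annotated transcripts (GENCODE vM39, GRCm39) were searched for a C, then 5 bases, then the loop CAGTGN with N other than G, then 5 bases that pair with the first 5, G-T pairs allowed. The loop is in capitals, and each line gives 27 bases of the mRNA strand, 5′ to 3′.
Fth1, 5′ UTR, chr19:9960097-9960123, plus strand: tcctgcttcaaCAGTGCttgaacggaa
Ftl1, 5′ UTR, chr7:45109204-45109230, minus strand: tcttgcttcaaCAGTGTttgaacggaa
Slc40a1, 5′ UTR, chr1:45964626-45964652, minus strand: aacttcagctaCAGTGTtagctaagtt
Tfrc, 3′ UTR, chr16:32450038-32450064, plus strand: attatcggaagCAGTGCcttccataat
Tfrc, 3′ UTR, chr16:32450417-32450443, plus strand: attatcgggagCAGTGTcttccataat
Tfrc, 3′ UTR, chr16:32450482-32450508, plus strand: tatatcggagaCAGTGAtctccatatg
Tfrc, 3′ UTR, chr16:32450529-32450555, plus strand: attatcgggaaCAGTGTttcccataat
Such a match occurred in 0.163% of 20917 genes with an annotated 5′ UTR and in 0.587% of 20952 genes with a 3′ UTR. The UTRs of the other 6 genes held no match to these letters, which says nothing about elements of another form. Slc11a2 is known to have transcripts with a 3′ UTR element, whose stem this strict pattern does not match.

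The genes differed widely in level. Per kilobase of the Ensembl canonical transcript, the ferritin chains were the most abundant, with 1630 ± 1350 CPM per kb for Ftl1 and 1380 ± 851 for Fth1 in untreated lines (SD, n = 3). Mt1 followed at 109 ± 14.3 and Mt2 at 52.3 ± 21.5 CPM per kb. Tfrc stood at 26.8 ± 29.7, Slc39a14 at 14 ± 7.58, Hmox1 at 10.4 ± 7.43, Slc11a2 at 10.3 ± 2.96, Slc40a1 at 9.89 ± 8.22 and Steap4 at 1.43 ± 1.8 CPM per kb. Ftl1 and Fth1 did not differ beyond the spread over lines, nor did the neighbours from Tfrc to Slc40a1. Fth1 lay above Mt1, Mt1 above Mt2, and Mt2 above Tfrc, in every line and condition. These levels depend on the transcript chosen for the length, which for the short Mt1 and Mt2 mRNAs includes long annotated 5′ ends.

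**Figure D1:**
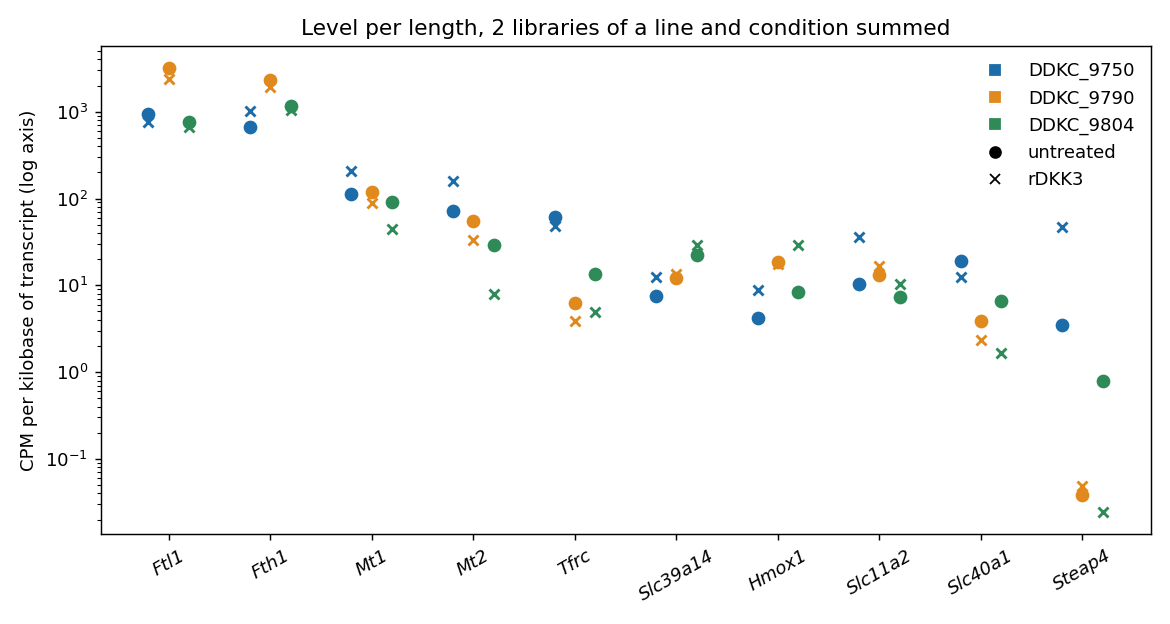
Level of the 10 genes per kilobase of transcript (vertical log axis, CPM per kb) in the 3 DDKC lines, with the 2 libraries of a line and condition summed. Circles are untreated and crosses rDKK3-treated samples; the ferritin chains sit at 660 CPM per kb or more in every sample and Steap4 spans from 0.0244 to 47.

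The lines themselves differed at 6 of the 10 genes (adjusted p under 0.05, edgeR's quasi-likelihood F test over the line terms), where 33.7% of all 16277 genes tested did. That test used the summed samples of both conditions. The folds given beside its p-values are between untreated samples alone and have no test of their own. Among untreated lines Tfrc was 9.82-fold higher in DDKC_9750 than in DDKC_9790 (adjusted p for the lines = 0.00309), and Slc40a1 5.01-fold higher between the same lines (0.0113). Ftl1 was 4.14-fold higher in DDKC_9790 than in DDKC_9804 (0.00283), and Fth1 was 3.51-fold higher in DDKC_9790 than in DDKC_9750 (0.0271). Slc39a14 was 2.99-fold higher in DDKC_9804 than in DDKC_9750 (0.00988). Steap4 was the sixth gene (0.0347). DDKC_9790 thus held the most ferritin RNA and the least Tfrc and Slc40a1 RNA of the 3 lines before treatment. Slc11a2 (1.81-fold between the highest and lowest line), Mt1 (1.3-fold), Mt2 (2.45-fold) and Hmox1 (4.43-fold) did not pass, with adjusted p of 0.107, 0.148, 0.0632 and 0.0729. Under 11 alternatives Mt2 passed in 7 and each of the other 3 in 4.

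The comparison of rDKK3-treated with untreated cells asks how exposure to DKK3 protein alters the RNA of Dkk3-null tumor cells. In the fit over 3 lines with the line as a block, 0 of the 10 genes passed an adjusted p of 0.05 in either direction. Over all genes 0.00614% were called higher (1 gene, Lcn2) and 0% lower, while 1333 genes, 5 of the 10 among them, had an unadjusted p under 0.05. DESeq2 on the same sums called 0 of the 10, where it called 30 genes higher and 68 lower over all genes. It gave 6 of the 10 an unadjusted p under 0.05. Among the 16277 genes of that fit it did so for 413 higher and 665 lower ones. An adjusted p was given for 13121 of them. The fit to 12 separate libraries called 3 of the 10 higher (Slc11a2, Slc39a14 and Hmox1) and 2 lower (Tfrc and Slc40a1), where 7.95% and 10.1% of 15165 genes were called higher and lower. That fit counts the repeat libraries as replicates, so its p-values may measure technical spread only. The median log2 fold change was -0.06 over the 10 genes and -0.01 over all genes tested. In 5 of the 10 genes the 3 lines differed in the same direction, where 32.2% of all genes tested did.

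**Figure D2:**
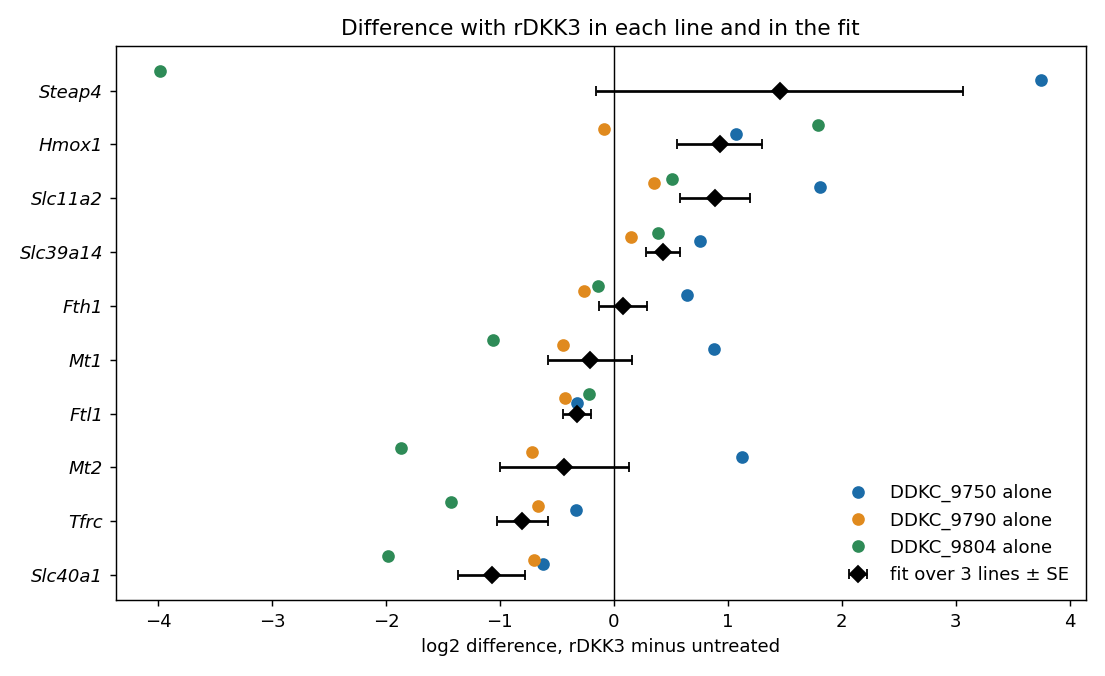
Log2 difference, rDKK3 minus untreated, for each gene (horizontal axis); coloured points are single lines and black diamonds the fit over 3 lines with its SE. Tfrc, Slc40a1 and Ftl1 lie left of 0 and Slc11a2 and Slc39a14 right of 0 in all 3 lines, and the point of Steap4 in DDKC_9790 is left out because both conditions are at the floor of 3 counts.

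The uptake genes lay on both sides of no difference. Tfrc (ENSMUSG00000022797.17, chr16:32427738-32451612, plus strand) encodes the transferrin receptor, the cell surface protein that brings in transferrin iron. Untreated, it was at 314 and 290 CPM in DDKC_9750, 31.2 and 30.1 in DDKC_9790, and 74.2 and 61 in DDKC_9804. With rDKK3 it was at 248 and 231, 20.3 and 18.2, and 25 and 24 CPM in the same lines. Within every line both rDKK3 libraries lay below both untreated ones, although the groups overlapped across lines because the lines differ more than the conditions. The rDKK3 level was 0.793 of the untreated level in DDKC_9750 (95% counting interval 0.758 to 0.83), 0.63 in DDKC_9790 and 0.371 in DDKC_9804 (0.327 to 0.418). Over lines the log2 fold change was -0.80 (SE 0.23, adjusted p = 0.603, lower in 3 of 3 lines), and in the 12-library fit -0.79 (adjusted p = 0.006). The intervals cover counting error only, and in bulk RNA fewer cells with a transcript and less of it per cell cannot be told apart.

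Slc11a2 (ENSMUSG00000023030.17, chr15:100285779-100322953, minus strand) encodes the divalent metal transporter that moves ferrous iron out of the endosome. Its untreated libraries were at 32.3 and 31.1 CPM in DDKC_9750, 40.4 and 39.9 in DDKC_9790, and 22.4 and 21.8 in DDKC_9804. With rDKK3 they were at 112 and 110, 51.2 and 50.5, and 32.1 and 31.5 CPM. Each line was higher with rDKK3, by 3.5-fold in DDKC_9750 but 1.27-fold and 1.43-fold in DDKC_9790 and DDKC_9804. The log2 fold change over lines was 0.89 (SE 0.31, adjusted p = 0.603, higher in 3 of 3 lines), and in the 12-library fit 0.90 (adjusted p = 0.0126). The gene thus stood on the side opposite to Tfrc in every line.

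Slc39a14 (ENSMUSG00000022094.16, chr14:70540918-70588874, minus strand) encodes a zinc transporter family member that also takes up iron not bound to transferrin. Its untreated libraries were at 40.2 and 38.1 CPM in DDKC_9750, 64.9 and 62.3 in DDKC_9790, and 123 and 112 in DDKC_9804. With rDKK3 they were at 68.9 and 63.6, 69.2 and 70.3, and 148 and 155 CPM. The 2 conditions did not overlap within any line, with differences of 1.69-fold, 1.11-fold and 1.31-fold in DDKC_9750, DDKC_9790 and DDKC_9804. Over the 3 lines the log2 fold change was 0.43 (SE 0.15, adjusted p = 0.603, higher in 3 of 3 lines), and in the 12-library fit 0.42 (adjusted p = 0.00869).

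Steap4 (ENSMUSG00000012428.10, chr5:8010457-8032213, plus strand) encodes a metalloreductase that reduces ferric iron and cupric copper. In DDKC_9750 it was at 12.7 and 11 CPM untreated and 168 and 151 CPM with rDKK3. In DDKC_9804 the untreated libraries held 28 and 65 counts and the rDKK3 libraries 0 and 1. In DDKC_9790 every library held 2 counts or fewer. Steap4 RNA was therefore higher with rDKK3 in 1 line, lower in another and not detectable above the floor in the remaining line. The ratio was 13.6 in DDKC_9750 (348 counts untreated and 1629 with rDKK3, 95% counting interval 12.1 to 15.3). In DDKC_9804 it was 0.0307, from 93 counts to 1 count (0.000768 to 0.175). The fit over lines gave 1.46 on the log2 scale (SE 1.61, adjusted p = 0.822) and the 12-library fit 2.30 (adjusted p = 0.0862), values that average opposite differences.

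**Figure D3:**
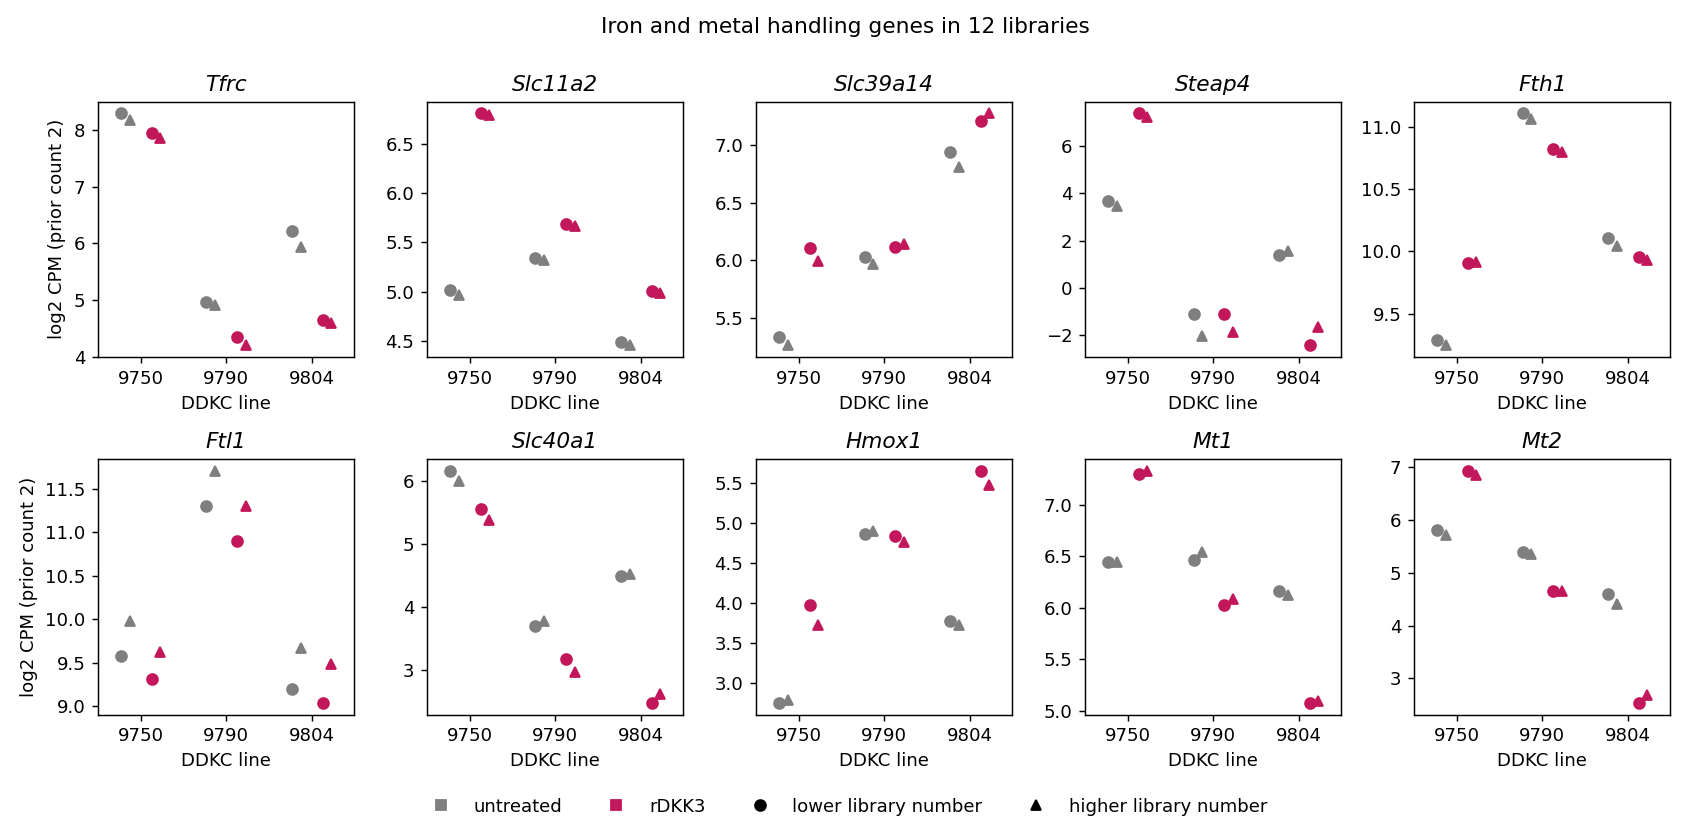
Log2 CPM (vertical axes, prior count 2) of the 10 genes in all 12 libraries by DDKC line; grey is untreated, red rDKK3, circles the lower and triangles the higher library number of a pair. For Ftl1 every triangle is above its circle; the Steap4 points in DDKC_9790 and treated DDKC_9804 rest on 2 counts or fewer.

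The ferritin chains form the storage arm. Fth1 (ENSMUSG00000024661.8, chr19:9957962-9962462, plus strand) encodes the heavy chain, which oxidises iron for storage. Untreated, it was at 626 and 608 CPM in DDKC_9750, 2210 and 2140 in DDKC_9790, and 1100 and 1060 in DDKC_9804. With rDKK3 it was at 958 and 964, 1810 and 1780, and 995 and 978 CPM. Both rDKK3 libraries were above the untreated ones in DDKC_9750 (1.56-fold) and below them in DDKC_9790 (0.835) and DDKC_9804 (0.911). The fit over lines gave a log2 fold change of 0.08 (SE 0.21, adjusted p = 0.925), and in the 12-library fit 0.08 (adjusted p = 0.732).

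Ftl1 (ENSMUSG00000050708.17, chr7:45107368-45109308, minus strand) encodes the light chain, which helps form the iron core inside the shell. Its untreated libraries were at 767 and 1010 CPM in DDKC_9750, 2530 and 3340 in DDKC_9790, and 585 and 816 in DDKC_9804. With rDKK3 they were at 634 and 792, 1910 and 2520, and 525 and 718 CPM. The higher-numbered library of Ftl1 was above the lower-numbered one in all 6 pairs, by a mean of 0.41 on the log2 scale (range 0.32 to 0.48). The mean shifts of the other 9 genes lay between -0.18 and 0.02, with single pairs of Steap4, at its lowest counts, from -0.90 to 0.78. The ranges of the 2 conditions overlapped in DDKC_9750 and DDKC_9804 for this reason, yet within each library series rDKK3 was lower in every line. Over lines Ftl1 had a log2 fold change of -0.32 (SE 0.13, adjusted p = 0.603, lower in 3 of 3 lines), and -0.30 in the 12-library fit (adjusted p = 0.146). With the library series as a further term in that fit the adjusted p was 0.00352. The same test on the lower-numbered libraries alone gave -0.26 (unadjusted p = 0.113) and on the higher-numbered ones -0.32 (0.0518). In DDKC_9804 the summed difference, -0.22, was larger than that within either series (-0.16 and -0.19).

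The balance of the ferritin chains differed between lines. The ratio of Fth1 to Ftl1 level per kb was 0.7 in untreated DDKC_9750, 0.729 in DDKC_9790 and 1.51 in DDKC_9804, and with rDKK3 it was 1.37, 0.818 and 1.59. The largest difference was in DDKC_9750, where the chains differed in opposite directions. In DDKC_9804 the lower-numbered libraries showed almost none, with log2 differences of -0.15 for Fth1 and -0.16 for Ftl1. Ferritin genes have processed copies that share sequence with them. Over all libraries Ftl1 held 183254 and Fth1 161445 counts, while the copies with most counts, Ftl1-ps1 and Ftl1-ps2, held 468 and 172, and reads that map equally well to a copy could have been lost from either gene.

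Slc40a1 (ENSMUSG00000025993.11, chr1:45947228-45965683, minus strand) encodes ferroportin, the iron exporter. Untreated, it was at 71.6 and 64 CPM in DDKC_9750, 12.8 and 13.5 in DDKC_9790, and 22.5 and 22.8 in DDKC_9804. With rDKK3 it was at 46.7 and 41.4, 8.81 and 7.68, and 5.38 and 5.98 CPM. The rDKK3 libraries lay below the untreated ones in every line, at 0.65, 0.615 and 0.254 of the untreated level in DDKC_9750, DDKC_9790 and DDKC_9804. The log2 fold change over lines was -1.07 (SE 0.30, adjusted p = 0.603, lower in 3 of 3 lines), and in the 12-library fit -1.02 (adjusted p = 0.00465). Uptake receptor and exporter thus stood on the same side, both lowest in relation to untreated cells in DDKC_9804. Among the 10 genes, Tfrc and Slc40a1 were each closest to the other over the 6 summed samples (Pearson r of log2 CPM = 0.964), a description over samples that share 3 lines.

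Hmox1 (ENSMUSG00000005413.9, chr8:75820249-75827217, plus strand) encodes heme oxygenase, which breaks heme down to biliverdin, carbon monoxide and iron and is known as a stress-induced gene. Its untreated libraries were at 6.55 and 6.72 CPM in DDKC_9750, 29 and 29.7 in DDKC_9790, and 13.5 and 13.1 in DDKC_9804. With rDKK3 they were at 15.6 and 13.1, 28.5 and 27, and 50.2 and 44.3 CPM. Hmox1 was 2.1-fold higher with rDKK3 in DDKC_9750 (95% counting interval 1.69 to 2.63) and 3.47-fold higher in DDKC_9804. In DDKC_9790, the line with the highest untreated level, the ratio was 0.94, with a counting interval of 0.837 to 1.06 that includes no difference. Hmox1 had a log2 fold change over lines of 0.93 (SE 0.37, adjusted p = 0.613), and in the 12-library fit 0.93 (adjusted p = 0.0301). Across the 6 summed samples Hmox1 ran most opposite to Slc40a1 (r = -0.95).

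Mt1 and Mt2 encode metallothioneins, small cysteine-rich proteins that bind zinc and copper, and their genes are known targets of the zinc-sensing factor encoded by Mtf1. They lie next to each other on chromosome 8, Mt2 (ENSMUSG00000031762.8) at chr8:94899292-94900196 and Mt1 (ENSMUSG00000031765.9) at chr8:94905710-94906955, both on the plus strand and 5513 bases apart. Mt1 was at 86.9 and 86.8 CPM untreated in DDKC_9750, 88.2 and 92.9 in DDKC_9790, and 71.3 and 69.6 in DDKC_9804. With rDKK3 it was at 158 and 161, 65.3 and 67.9, and 33.6 and 34.1 CPM. The lines were close together before treatment (82.7 ± 10.9 CPM, SD, n = 3) and spread out with rDKK3 (86.6 ± 64.8), because Mt1 was 1.84-fold higher in DDKC_9750 and at 0.735 and 0.48 of the untreated level in DDKC_9790 and DDKC_9804.

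Mt2 followed the same order with larger differences. Its untreated libraries were at 56.3 and 52.8 CPM in DDKC_9750, 42.2 and 41 in DDKC_9790, and 24 and 21 in DDKC_9804. With rDKK3 they were at 122 and 116, 25.2 and 25, and 5.6 and 6.24 CPM. The ratios to untreated were 2.19 in DDKC_9750, 0.608 in DDKC_9790 and 0.271 in DDKC_9804 (95% counting interval 0.21 to 0.345). Over lines the log2 fold changes were -0.21 for Mt1 (SE 0.37, adjusted p = 0.891) and -0.43 for Mt2 (SE 0.57, adjusted p = 0.849), with adjusted p of 0.659 and 0.612 in the 12-library fit. Mt1 and Mt2 were each other's closest partner (r = 0.985 over 6 summed samples). The ratio of Mt1 to Mt2 counts was 1.6, 2.21 and 3.2 in untreated DDKC_9750, DDKC_9790 and DDKC_9804 and 1.35, 2.67 and 5.66 with rDKK3.

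Since these neighbours differed in the same direction in each line, the 250 bases before each gene start of the count table were searched on both strands for the metal response cores TGCGCNC and TGCACNC. Matches are shown with 8 bases on each side, in GRCm39 on the plus strand, with the core in capitals.
Mt2, chr8:94899110-94899132: agacccttTGCGCTCagctcctt
Mt2, chr8:94899188-94899210: gggagggcGTGTGCAggctctgt
Mt2, chr8:94899242-94899264: ttcgggtcGTGCGCAggcccagg
Mt1, chr8:94905686-94905708: tcccgctgTGCACACtggcgctc
The last 2 Mt2 matches read on the minus strand. The same search found 2 overlapping cores before Tfrc, 1 before Slc40a1 and 0 before each of the other 6 genes, so the cores are not particular to the metallothionein genes. At least 1 such core occurred in 23.3% of 21652 promoter windows of this length and at least 3 in 1.47%. Transcripts of both genes have other annotated starts, so the window may miss cores near them, and a match is not evidence of binding. The window may miss cores of the other genes too. For Fth1 the gene start is at chr19:9957962 and the 5′ UTR hairpin at chr19:9960097, so its 0 covers only the window before that start.

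The 10 genes were set beside a wider list of 107 iron, heme, zinc and copper genes that contains them, grouped by role, of which 97 were tested. In the 3-line fit 1 was called higher and 0 lower. In the 12-library fit, which tested 96 of them, 13 were called higher and 10 lower, beside 7.95% higher and 10.1% lower over all genes of that fit. The median log2 fold change in the 3-line fit was -0.02, beside -0.01 over all genes. Without the 10 genes, the 12-library fit tested 86 and called 10 higher and 8 lower. The calls counted by role below are from the 12-library fit and stand beside the same shares over all genes. Its limit, that repeat libraries count as replicates, holds for each of them.

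The gene called in the 3-line fit was Lcn2, which encodes lipocalin, a secreted protein that binds iron-laden siderophores. It went from 60.6 to 4450 CPM in DDKC_9750 and from 0.0573 CPM, under the floor of 0.086 CPM for that sample, to 7.76 CPM in DDKC_9804. In DDKC_9790 it was at 0 and 0.0539 CPM, both under the floor. Its log2 fold change was 6.28 (SE 0.24, adjusted p = 0.0103). This SE does not describe the spread of the single-line differences, which were 6.20 in DDKC_9750, 0.66 in DDKC_9790 and 5.71 in DDKC_9804. Without DDKC_9750 and without DDKC_9790 0 genes were called higher. In the uptake group of 15 genes, the 12-library fit called 4 higher (Slc11a2, Slc39a14, Lcn2 and Lrp1, the last not in DDKC_9790) and 1 lower (Tfrc), and the median in the 3-line fit was 0.40. Trf, the gene of transferrin itself, was at 1060 and 2800 CPM in untreated and treated DDKC_9750, 106 and 106 in DDKC_9790, and 27.1 and 30.1 in DDKC_9804 (log2 fold change 0.52, SE 0.30, adjusted p = 0.68).

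Among 6 sensing genes the 12-library fit called 1 higher (Hif1a) and 2 lower (Rnf217 and Aco1, which encodes an iron regulatory protein). Hif1a, which encodes the oxygen-regulated subunit of the hypoxia factor and is marked for degradation by iron-dependent hydroxylases, was at 188 CPM untreated and 383 with rDKK3 in DDKC_9750, 490 and 630 in DDKC_9790, and 254 and 425 in DDKC_9804. Its log2 fold change was 0.71 (SE 0.16, adjusted p = 0.603, higher in 3 of 3 lines), and its adjusted p in the 12-library fit was 0.0012. Rnf217, which encodes a ubiquitin ligase for ferroportin, had a log2 fold change of -0.21 (adjusted p = 0.665). In storage and chaperones, 0 were called higher and 1 lower of 5 tested, the latter being Pcbp1, an iron chaperone that delivers iron to ferritin (-0.20, adjusted p = 0.0243 in the 12-library fit). Ncoa4, the receptor that takes ferritin to the lysosome, was at -0.14 in the 3-line fit (adjusted p = 0.747). In the export and hepcidin group of 10 genes, 5 were tested, and Slc40a1 was the only one called, lower. Bmp6, a ligand that induces hepcidin in the liver, stayed under 3 CPM.

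The next groups cover mitochondrial iron handling and heme, with values from the 12-library fit. Of 15 mitochondrial genes 1 was called higher, Slc25a37, which encodes a mitochondrial iron importer (log2 fold change 0.54, adjusted p = 0.0371, not higher in DDKC_9750), and 1 lower, Glrx5, an iron-sulfur cluster carrier (-0.19, adjusted p = 0.0297). Slc25a28, a second importer, was at 0.17 (adjusted p = 0.148). Of 10 heme synthesis genes tested in that fit, 0 were called, with Cpox at 0.33 and Urod at -0.25 (adjusted p = 0.0624 and 0.0815). In heme breakdown and transport, 3 of 13 were called higher (Hmox1, Hpx and Lrp1) and 2 lower. Hpx, which encodes the heme-binding plasma protein hemopexin, was higher in DDKC_9750 only, at 1.07 CPM untreated and 41 with rDKK3, and under 0.52 CPM in both other lines (adjusted p = 0.71 in the 3-line fit). The lower genes were Abcg2, an exporter that also carries porphyrins (-0.46, adjusted p = 0.0106), and Pgrmc1, a heme-binding membrane protein (-0.28, adjusted p = 0.00345).

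Of 3 tested genes in the metallothionein group, the 12-library fit called 1, Mtf1 (log2 fold change 0.19, adjusted p = 0.035). Mtf1 was higher in 3 of 3 lines, while Mt1 and Mt2 were higher in 1 of 3. Of 15 zinc transport genes, 4 were called higher and 1 lower, where 7.95% and 10.1% of all genes were. The lower one was Slc30a9 (-0.32, adjusted p = 0.044). The higher ones were Slc30a7, Slc39a6 and Slc39a10, of which the last 2 were not higher in DDKC_9790, and Slc39a7, a zinc channel of the endoplasmic reticulum and Golgi (0.32, adjusted p = 0.0398). Of 10 copper genes, 0 were called higher and 1 lower, Sod1, the copper and zinc superoxide dismutase (-0.34, adjusted p = 0.0213). Atox1, a copper chaperone, was at -0.36 (adjusted p = 0.0604).

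**Figure D4:**
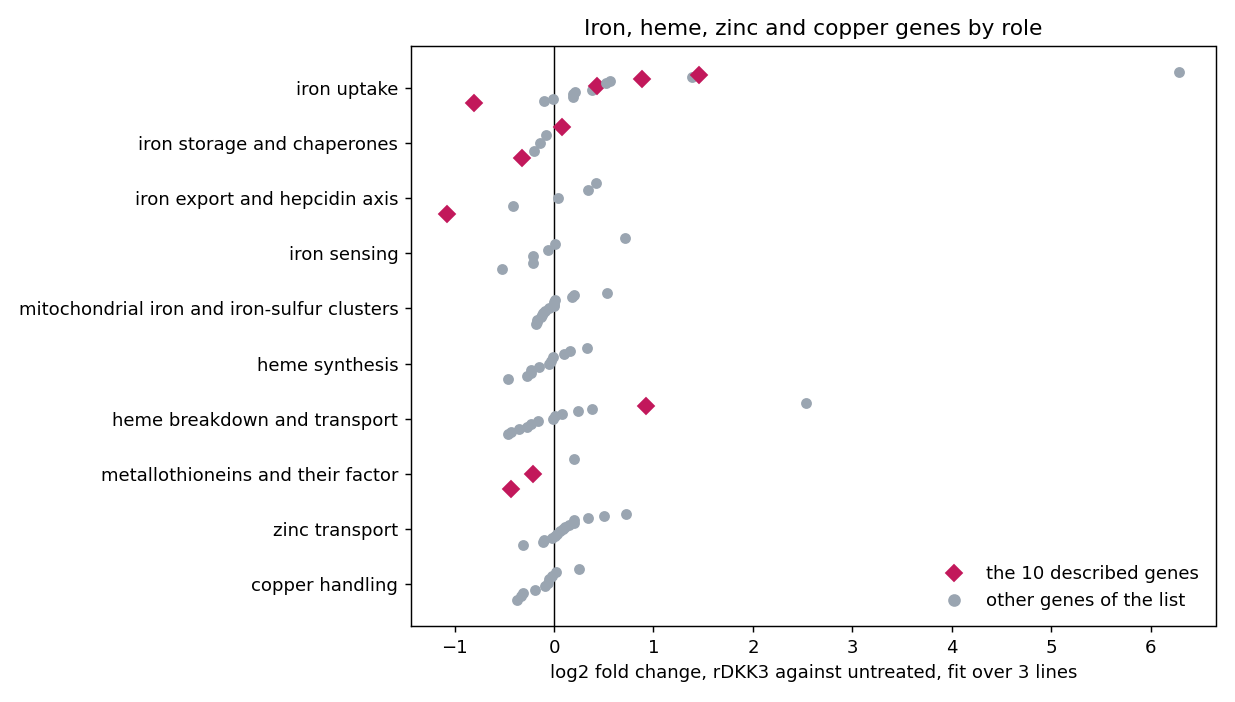
Log2 fold change, rDKK3 against untreated, in the 3-line fit (horizontal axis) for 97 tested iron, heme, zinc and copper genes by role; red diamonds are the 10 genes described here and grey points the others. Most points lie between -1 and 1, and the point at 6.28 in the uptake group is Lcn2.

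Some markers differed between the conditions too. Krt8, Krt18, Krt19 and Krt7 were lower with rDKK3 in 3 of 3 lines, with log2 fold changes of -0.47, -0.36, -0.55 and -0.85 in the 3-line fit, none past an adjusted p of 0.05, and adjusted p of 0.0131, 0.0235, 0.00011 and 0.00358 in the 12-library fit. The other epithelial markers were Cdh1 (0.16, adjusted p = 0.788 in the 3-line fit, lower in DDKC_9790 only) and Epcam (-0.26, adjusted p = 0.862). Among macrophage markers Cd68, at 2 to 39.1 CPM over the libraries, was higher with rDKK3 in 3 of 3 lines (log2 fold change 0.87, adjusted p = 0.603, and 0.00142 in the 12-library fit). Cd14 had an adjusted p of 0.91 in the 3-line fit and differed by 1.37 in DDKC_9750, 0.11 in DDKC_9790 and -0.89 in DDKC_9804 on the log2 scale, the same order of lines as Mt1 and Mt2. Their part in the values above was not tested. After every library was thinned to the total of the shallowest one, all 10 genes kept the direction of their log2 fold change over lines and 0 of the 10 had an adjusted p under 0.05.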

How the data were processed

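Per the labels and the methods of the study, 50-base read pairs from strand-specific libraries were aligned to GRCm39 with STAR 2.7.9a and counted on exons of GENCODE M32 genes with GenomicAlignments; the authors deposited raw counts per gene, with no normalization. The 92 spike-in rows held 0 counts (0% of counts) and were left out. The 2 libraries of a line and condition were summed, because the labels do not say that they are separate cultures. The sums were tested with edgeR 4.0.16 (R 4.3.3): quasi-likelihood test, TMM, filterByExpr over the 3 lines (16277 genes), line as a block, Benjamini-Hochberg adjustment over all genes tested, threshold 0.05, two-sided. A fit to 12 libraries (15165 genes) is given beside it. With the line as a block, p-values for rDKK3 are set against how far the difference with rDKK3 varied between these lines. With 12 libraries the spread between libraries enters as well and may be technical only. P-values for the lines are set against what is left within lines after a common treatment shift. The SE of a log2 fold change is its absolute value divided by the square root of the F statistic of its test. Single-line differences are of log2 CPM with a prior count of 2 and have no test. Where a single-line ratio is given with a 95% interval, that is an exact counting interval for the ratio without a prior count. Single-line folds without an interval come from the log2 differences. The pairing comes from the line named in the labels: samples of a line deviated together (mean r = 0.827, against -0.414 between lines). Lengths and UTRs come from GENCODE vM39, a later release than the counts used.

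The genes and lists were chosen with earlier results of these data known. Named from the wider list were, per role, the 2 further genes that passed the filter, had 1 sign in all 3 lines and differed most by absolute log2 fold change. Lrp1, Aco1, Slc25a37, Hpx, Slc30a7, Slc39a6 and Slc39a10 fall outside this rule and were named after their values were seen. The metal response cores and the genes of the last paragraph were chosen after values were seen, and so were the markers named singly. Alternatives covered DESeq2 1.42.0, RLE scaling, filters, single library series, thinning, the block, leaving out each line and, chosen after seeing the data, the filter over the 2 conditions. The tests were checked on simulated counts. Part of the genotype shared by all lines is not reported here.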

Additional observations from a re-analysis of the deposited data

Results flagged for a closer look

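At 5 of the 10 genes the lines moved to opposite sides with rDKK3, with both rDKK3 libraries on 1 side of both untreated ones in each line named here. Over all genes tested, 32.2% had the same sign in all 3 lines, so mixed signs at 5 of 10 are not particular to these genes. The share of all genes that meet the stricter criterion on single libraries was not computed. The difference between lines was not tested, since each line and condition is 1 sample. Steap4 differed by 3.75 on the log2 scale in DDKC_9750 and by -3.98 in DDKC_9804, where the rDKK3 sample held 1 count and the size depends on the prior count (-4.68 with a prior count of 0.5). Fth1 differed by 0.65 in DDKC_9750 and by -0.26 and -0.14 in DDKC_9790 and DDKC_9804. Hmox1 differed by 1.07 in DDKC_9750 and 1.79 in DDKC_9804 and by -0.089 in DDKC_9790, a difference that its counting interval does not separate from 0. Mt1 differed by 0.88 in DDKC_9750, -0.44 in DDKC_9790 and -1.06 in DDKC_9804, and Mt2 by 1.13, -0.72 and -1.87 in the same lines.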

How the results depend on the processing

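Tfrc, Slc11a2, Slc39a14, Slc40a1, Hmox1 and Ftl1 kept their direction in 15 of 15 alternatives. They passed an adjusted p of 0.05 only in fits to 12 separate libraries, Ftl1 only with the library series as a term. Their log2 fold changes ranged over the alternatives from -1.04 to -0.49 for Tfrc, 0.44 to 1.19 for Slc11a2, 0.28 to 0.60 for Slc39a14, -1.32 to -0.66 for Slc40a1 and 0.46 to 1.47 for Hmox1. The range for Ftl1 was -0.37 to -0.25. The line differences of Tfrc, Slc39a14, Fth1, Ftl1 and Slc40a1 passed in 11 of 11 alternatives and that of Steap4 in 10 of 10. Those of Mt2 (7 of 11) and of Slc11a2, Mt1 and Hmox1 (4 of 11 each) passed in some alternatives but not in the 3-line fit. Depth limits Steap4 in DDKC_9790 and in treated DDKC_9804. Steap4 did not pass the filter without DDKC_9750 or when all libraries had to hold 10 counts, and its log2 fold change was 0.10 to 3.57 elsewhere, 3.57 without DDKC_9804.

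The count of genes called higher, 1 in the 3-line fit, was 30 with DESeq2, 41 with no filter on low counts, 0 with at least 10 counts in every library, 2 after thinning to the shallowest library, 1205 with 12 separate libraries, 1318 with the library series as a further term, and 0 to 2 when a line was left out (0 without DDKC_9750 and without DDKC_9790, 2 without DDKC_9804). The count called lower, 0 in the 3-line fit, was 68 with DESeq2, 49 with no filter, 1539 with 12 libraries and 1806 with the series. Genes differing among lines numbered 5480, but 11790 with 12 libraries and 12211 with the series.

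The replicate block of these fits is the cell line. With no replicate block 0 genes were called higher on the summed counts and 0 on 12 libraries (48 and 589 at an unadjusted p under 0.05). Without this line term Fth1 turned to -0.04 and -0.047 (sums and 12 libraries), Mt1 to 0.066 and 0.065, and Mt2 to 0.35 and 0.34. Leaving out a line in turn gave -0.19 (without DDKC_9750) to 0.28 for Fth1, -0.74 to 0.22 (without DDKC_9804) for Mt1 and -1.24 to 0.22 (without DDKC_9804) for Mt2. The cause was not tested.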
